A study of Drosophila melanogaster with 6 samples.

Results

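The second hour of exposure to JQ1 was examined by setting the library of cells treated for 2 h against the library of cells treated for 1 h, so that no solvent control entered the ratio. The members were all genes that passed an abundance filter. A gene passed when its scaled counts averaged 10 or more across the series of 6 libraries, which left 8690 of the 14869 gene identifiers in the files. S2-DRSC is a stock of the Drosophila melanogaster S2 line, an embryo-derived line with blood cell character, and the cells grew exponentially when JQ1, dissolved in DMSO, was added to the medium at 10 µM for 1, 2, 4 or 20 h. Control cells received DMSO for 1 or 20 h, and DMSO 20 h over DMSO 1 h served as the background without JQ1. All 6 libraries came from the same line and were made from polyadenylated RNA, with 1 library per condition, so that no difference below has a replicate check and no p-value is given. A scaled count is the number of reads counted in a gene divided by a library factor set on the 100 genes most abundant in DMSO, as the study's own scaling was. Intervals are exact 95% intervals that cover counting error only.

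BET proteins read acetylated histones through their bromodomains, and JQ1 binds in the pocket that takes up the acetyl-lysine, which displaces them from chromatin. In flies the only member of the family is FSH, encoded by fs(1)h, a Trithorax group protein. When production of an mRNA drops, its level follows at a pace set by the stability of the transcript, and a long gene takes longer to be read through than a short one before a change in its transcription can reach the mature mRNA.

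The JQ1 2 h library held 29823608 reads in genes and the JQ1 1 h library 28746578. The DMSO 20 h library held 24547077 and the DMSO 1 h library 27786072. The number of genes with a read ranged from 11170 to 11439 per library. Over the genes tested, the chi-square of the counts divided by its degrees of freedom was 34.3 for JQ1 2 h against JQ1 1 h and 4.17 for DMSO 20 h against DMSO 1 h, where sampling noise alone would give about 1. The blood cell character was present in both JQ1 libraries: 12 plasmatocyte markers summed to 726893 scaled counts at 2 h and 606018 at 1 h, carried mainly by the collagen IV genes and Pxn. He, crq and Sr-CI were lower at 2 h than at 1 h and the other markers higher, with NimC4 at or below 1 scaled count in both. Lamellocyte markers summed to 13619 at 2 h and 12876 at 1 h, nearly all from mys. Crystal cell markers summed to 948 and 923, mainly from PPO2, and fat body markers to 1912 and 1611, nearly all from apolpp. Of the 4 neuronal markers the sum was 277 at 2 h and 378 at 1 h, nearly all from elav, and the ovarian follicle cell markers tj, Vm26Aa and Cp16 were at or below 1 scaled count each in both. In bulk RNA, fewer cells of a type and less RNA per cell cannot be told apart. The target gene fs(1)h itself had 9463 scaled counts at 2 h, against 8409 at 1 h (log2 0.17, interval 0.13 to 0.21), and 13075 in DMSO 1 h.

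Between the first and the second hour, 179 of 8690 genes (2.06%) were lower by over 2-fold and 99 (1.14%) were higher. The DMSO pair gave 31 (0.357%) and 38 (0.437%). With the limit at 1.5-fold, 906 genes (10.4%) were lower and 414 (4.76%) higher, against 148 (1.7%) and 185 (2.13%) in the DMSO pair. The first hour, JQ1 1 h over DMSO 1 h, had moved far more genes, with 1633 lower by over 2-fold (18.8%) and 92 higher (1.06%). The median gene was at log2 -0.09 in the second hour, at -0.51 in the first and at 0.05 in the DMSO pair. Raising the filter to a mean of 50 scaled counts left 143 lower (1.95% of 7339) and 29 higher (0.395%) in the second hour, while the DMSO pair gave 0 lower (0.0%) and 4 higher (0.0545%). Asking in addition that the counting interval exclude no change left 172 lower (1.98%) and 81 higher (0.932%) of the 8690. The surplus of genes that were lower therefore lay in well-counted genes, and most genes that were higher lay among the sparsest. The split of 179 lower and 99 higher depended on the scaling, being 132 and 133 with TMM factors and 121 and 141 with DESeq2 factors, which move the median of all genes up by 0.07 and 0.09 on the log2 scale. Nearest to the limit on the lower side were CG31974 inside it (16.2 at JQ1 2 h against 33.4 at JQ1 1 h) and Ibf1 outside it (148 against 297). On the higher side these were CG12071 inside (130 against 64.1) and Prtl99C outside (23.8 against 11.4).

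**Figure D1:**
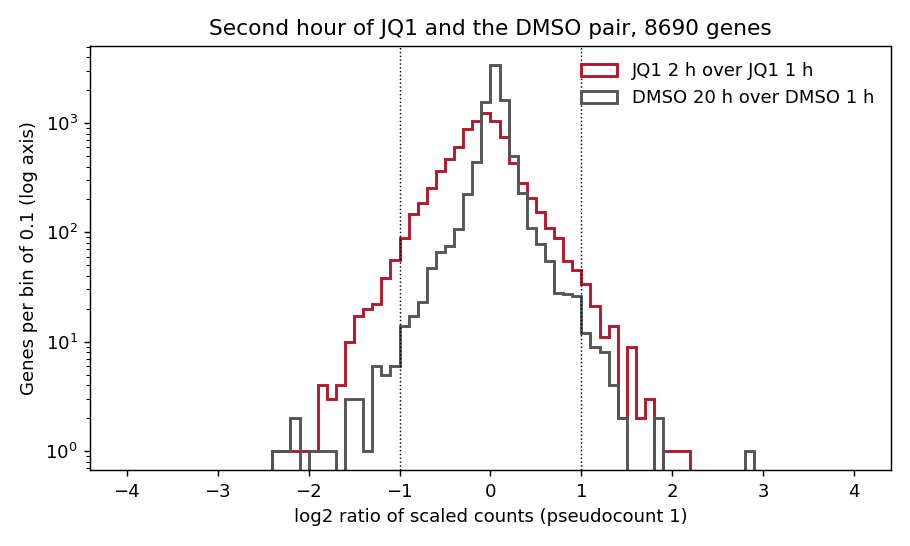
Number of genes (log axis) per bin of 0.1 in the log2 ratio of scaled counts, for JQ1 2 h over JQ1 1 h (red) and DMSO 20 h over DMSO 1 h (grey), with dotted lines at 2-fold. The JQ1 ratio is wider on both sides and its median lies at -0.09, against 0.05 for the DMSO pair.

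Genes were then sorted by both hours. Of the 1633 genes that fell below 50% of DMSO 1 h in the first hour, 115 (7.04%) fell below 50% again in the second. Of the others, 297 were at 50% to 67% of their JQ1 1 h level at 2 h, 279 at 67% to 80%, and 794 (48.6%) held between 80% and 125%. A further 71 were at 125% to 150%, and 77 (4.72%) were higher by at least 1.5-fold. Over all genes tested the quartiles of the second hour were log2 -0.32 and 0.11, inside the limits of 80% and 125%. Holding was therefore at least as common among all genes, and 4.76% of all were higher by over 1.5-fold. Seen from the other side, 115 of the 179 genes lower by over 2-fold in the second hour were already below 50% in the first, 42 had been at 50% to 67% and 21 within 1.5-fold of DMSO 1 h. Both hours share the JQ1 1 h library, in which a chance low count lowers the first ratio and raises the second, so these class sizes are a description. They also followed the scaling: the 115 genes that fell in both hours became 28 with TMM and 23 with DESeq2 factors, and the 794 that held became 237 and 226.

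The 115 genes that kept falling (1.32% of all tested) had a median of 54.4 scaled counts at JQ1 2 h and 124 at JQ1 1 h, and 336 in DMSO 1 h. As a share of the DMSO mean their median was 38.3%, 15.9%, 13.2% and 20.4% after 1, 2, 4 and 20 h. The 4 h and 20 h libraries did not define this class, though the scaling and the abundance filter used all 6 libraries. At 4 h all 115 genes were below 50% of the DMSO mean, against 39.5% of all genes tested. At 20 h 105 of them were, against 31.4%. At 2 h, a library that defined the class, all 115 were already below 50% of the DMSO mean. Their 2 h level was thus chosen low, so the shares at 4 h and 20 h are a description. So is the distance from the 2 h level to the 4 h level. At 20 h, 4 of the 115 (3.48%) were back within 1.5-fold of the DMSO mean, against 41.9% of all genes tested.

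Sirup and Bhmt were among the lowest genes that carry a name. Bhmt, which transfers a methyl group from betaine to homocysteine, had 186 scaled counts at JQ1 2 h against 537 at JQ1 1 h (log2 -1.52, interval -1.76 to -1.30). It went on to 43.3 at 4 h and 40.0 at 20 h. It had 1133 in DMSO 1 h. Sirup, an assembly factor of succinate dehydrogenase, fell to 237 at 2 h, against 714 at 1 h (log2 -1.59, -1.79 to -1.39), and then to 84.7 at 4 h and 72.0 at 20 h, against 1084 in DMSO 1 h. Both genes were lowest at 20 h.

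Further genes named by the same rule or as list members had other roles. The qless gene, whose product makes the isoprenoid tail of coenzyme Q, had 120 scaled counts at JQ1 2 h against 315 at JQ1 1 h (log2 -1.38, -1.68 to -1.11). Trmt61, the catalytic subunit of a tRNA methyltransferase, had 67.2 against 185 (log2 -1.44, -1.85 to -1.08). Dbp21E2, a DEAD box helicase, had 136 against 359 (log2 -1.39, -1.67 to -1.13). Rrp46, a subunit of the RNA exosome, had 158 against 355 (log2 -1.16, -1.42 to -0.91) and had been above 50% of DMSO in the first hour. APC10, a subunit of the ubiquitin ligase that drives exit from mitosis, had 57.0 against 164 (log2 -1.51, -1.95 to -1.12). FIG4, a phosphoinositide phosphatase, had 86.8 against 231 (log2 -1.40, -1.76 to -1.08). It had 42.3 at 4 h and 139 at 20 h.

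Aven, the fly counterpart of a mammalian inhibitor of cell death, had 30.6 scaled counts at JQ1 2 h against 83.5 at JQ1 1 h (log2 -1.42, -2.04 to -0.88). Rlip, related to a Ral-binding protein, had 157 against 451 (log2 -1.52, -1.78 to -1.28). The 5 genes furthest down, above a mean of 50 scaled counts, were CG5846 (38.3 at 2 h against 138 at 1 h), CG15484 (30.6 against 105), CG9967 (48.5 against 164), CG1227 (64.7 against 211) and FBgn0032361 (85.1 against 272), at log2 -1.82 to -1.66. Of the 12 lowest genes that carry a name, 11 were lower still at 4 h than at 2 h and all 12 were below both DMSO libraries at 20 h. Of these 12 genes, 9 share exonic bases with a neighbouring gene in the annotation (Bhmt, Rlip and qless do not). It is not stated whether strand was used in counting. Reads of the shared bases may have been set aside as ambiguous, or reads of the neighbour may enter the values of these 9 genes. Such sharing was present in 89 of the 171 annotated genes that were lower by over 2-fold, in 22 of the 86 that were higher and in 40.5% of all annotated genes tested.

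**Figure D2:**
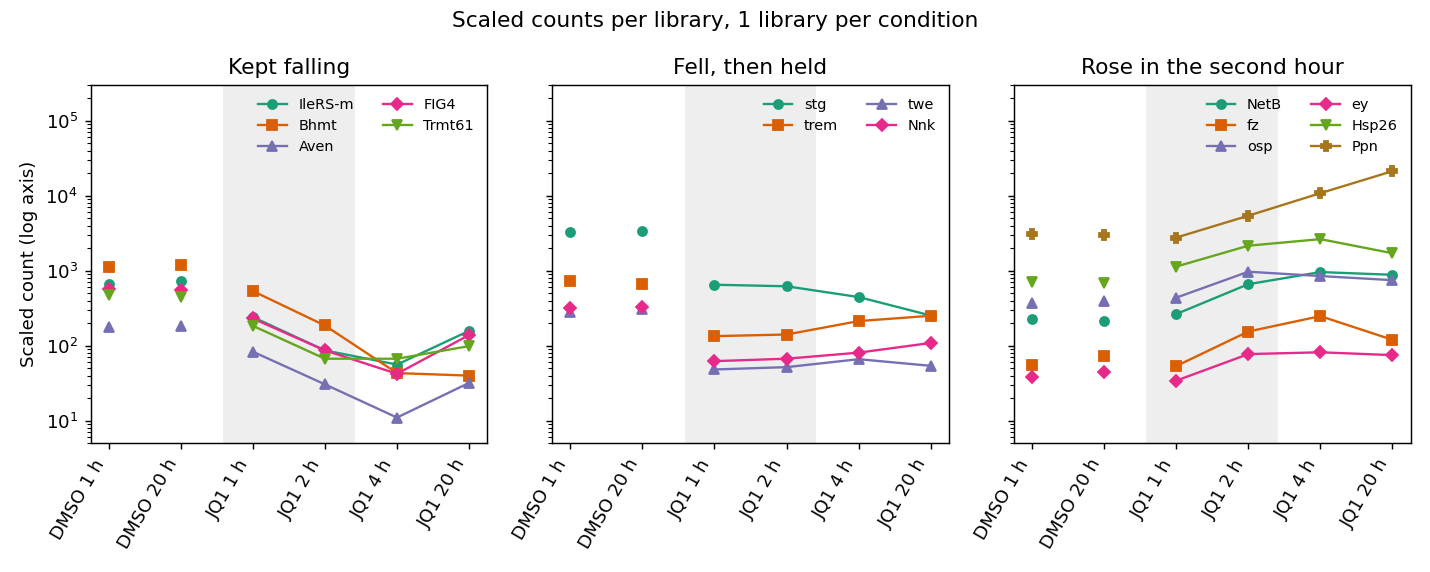
Scaled counts (log axis) in the 6 libraries, 1 library per condition, for genes that kept falling, genes that fell and then held, and genes that were higher in the second hour, with the 2 libraries compared shaded. Bhmt drops to 186 at 2 h, stg stays at 621 and NetB climbs to 662.

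The class that stopped falling was the larger, with 794 genes (9.14%). At JQ1 2 h its median was 299 scaled counts and at JQ1 1 h 319, against 826 in DMSO 1 h, and as a share of the DMSO mean it ran at 40.7%, 39.2%, 38.4% and 53.5% after 1, 2, 4 and 20 h. At 20 h, a library that did not define the classes, 348 of the 794 (43.8%) were below 50% of DMSO and 197 (24.8%) were back within 1.5-fold. Of all genes tested, 31.4% were below 50% and 41.9% were within 1.5-fold at 20 h. The 1 h level of the class was chosen low, so these shares are a description. The members that had fallen furthest in the first hour illustrate the plateau. The gene stg, the Cdc25 phosphatase that triggers mitosis, had 621 scaled counts at 2 h against 651 at 1 h (log2 -0.07, interval -0.22 to 0.08), against 3329 in DMSO 1 h, and did not recover (446 at 4 h and 253 at 20 h). The other fly Cdc25 gene, twe, known from meiosis, had 51.9 at 2 h against 48.3 at 1 h (log2 0.10, -0.45 to 0.66), against 278 in DMSO 1 h.

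In trem, a zinc finger gene known from meiotic recombination, the count was 141 at JQ1 2 h against 134 at JQ1 1 h (log2 0.07, -0.25 to 0.40), with 725 in DMSO 1 h, and it then climbed to 213 at 4 h and 251 at 20 h. Nnk, another zinc finger gene, had 67.2 at 2 h against 62.4 at 1 h (log2 0.11, -0.37 to 0.59), with 316 in DMSO 1 h. The dosage compensation gene msl-3 (271 against 337), the checkpoint kinase gene Bub1 (1109 against 1023) and the chaperone gene Hsp68 (345 against 367) were in this class too. All of them were below 50% of DMSO within 1 h and differed little from that level in the hour that followed.

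A late fall, within 1.5-fold of DMSO 1 h in the first hour and below 50% in the second, was found in 21 genes (0.242%), with median levels of 10.2 scaled counts at JQ1 2 h and 25.5 at JQ1 1 h. Only 6 remained with a minimum mean of 50 scaled counts. The best counted was Ada, adenosine deaminase, which had 151 scaled counts at 2 h against 318 at 1 h (log2 -1.07, interval -1.34 to -0.81) and 464 in DMSO 1 h, and went to 63.5 at 4 h. CG9967, the longest of the annotated genes lower by over 2-fold, had 48.5 against 164 (log2 -1.74, -2.21 to -1.33). The leucine-rich repeat gene 2mit had 27.2 against 72.9 (log2 -1.39, -2.06 to -0.82) and 2.00 at 20 h. As a share of the DMSO mean the median of the 21 genes was 78.0%, 34.6%, 28.0% and 30.0% after 1, 2, 4 and 20 h.

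Genes that fell and then rose by at least 1.5-fold numbered 77 (0.886%), but their median level was 17.0 scaled counts at JQ1 2 h and 7.03 at JQ1 1 h, and only 14 remained with a minimum mean of 50. They were 4.72% of the 1633 first-hour fallers, near the 4.76% of all genes tested that were higher by over 1.5-fold. The best counted were sug, a zinc finger factor of sugar metabolism, with 1418 at 2 h against 823 at 1 h (log2 0.78, interval 0.67 to 0.90) and 2634 in DMSO 1 h. Dph1, an enzyme of diphthamide synthesis, had 1280 against 789 (log2 0.70, 0.58 to 0.82). Dph1 also differed between DMSO 20 h (3458) and DMSO 1 h (1603), so a change of this size occurred without JQ1. Nufip, a factor of small nucleolar RNP assembly, had 148 against 97.5 (log2 0.60, 0.25 to 0.96). The mitochondrial carrier gene Ucp4C had 73.2 against 38.7 (log2 0.90, 0.38 to 1.48).

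**Figure D3:**
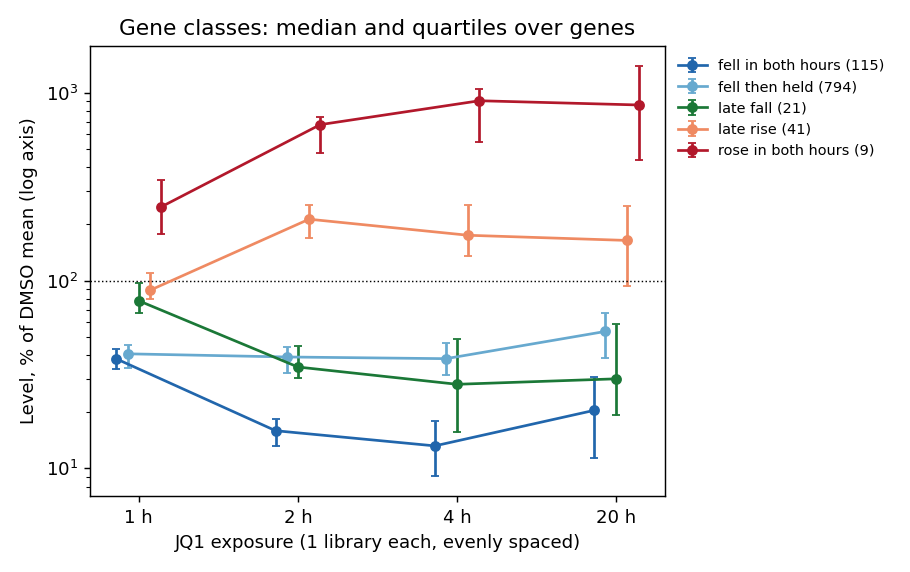
Level as a percentage of the DMSO mean (log axis) after 1, 2, 4 and 20 h of JQ1, as the median (point) and quartiles (bars) over the genes of each class, with the number of genes in brackets. The classes were defined on DMSO 1 h, JQ1 1 h and JQ1 2 h, among genes that passed the abundance filter over all 6 libraries. By median, genes that fell in both hours go to 15.9% at 2 h and genes that held stay near 40% up to 4 h. The median of the late risers is above 100% at 4 and 20 h.

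Among the 99 genes higher by over 2-fold in the second hour (1.14%), 41 (0.472% of all tested) had been within 1.5-fold of DMSO in the first hour, 29 had been below 50% and 9 (0.104%) above 200%. The 41 late risers had a median of 58.7 scaled counts at JQ1 2 h and 28.1 at JQ1 1 h, and the 9 that rose in both hours 65.5 and 31.6. The 4 h and 20 h libraries did not define these classes, but the abundance filter averaged all 6 libraries. Genes low in DMSO can have passed it through high JQ1 levels, so the later levels of both classes are a description. The late risers were at a median of 174% of the DMSO mean at 4 h and 163% at 20 h, with 2 of 41 below 50% at 20 h. The 9 genes that rose in both hours were at a median of 906% at 4 h and 860% at 20 h. They were also higher in DMSO 20 h than in DMSO 1 h, by a median of log2 0.73, on a median of 11.1 scaled counts in the DMSO 1 h library that chose them. The levels of these genes were low: 78 of the annotated genes higher by over 2-fold lay in the lowest of 5 equal groups by DMSO level, where the DMSO pair itself gave 28.

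Of the 12 highest genes that carry a name, 3 are surface or guidance molecules of the axon guidance list. NetB, a netrin that guides axons, had 662 scaled counts at JQ1 2 h against 264 at JQ1 1 h (log2 1.32, interval 1.13 to 1.52) and 229 in DMSO 1 h, and then 961 at 4 h and 883 at 20 h. The Wnt receptor gene fz had 155 against 53.6 (log2 1.51, 1.10 to 1.97) and 55.6 in DMSO 1 h. The gene side-V, of the sidestep family of immunoglobulin-domain surface proteins, had 358 against 111 (log2 1.68, 1.40 to 1.99) and 11.1 in DMSO 1 h, so that it had been rising since the first hour. The list of axon guidance genes was drawn up after these values had been seen, so its count restates them: 3 of its 24 members were higher by over 2-fold, 8 by over 1.5-fold and 0 lower by over 1.5-fold, with a median of log2 0.14 against -0.09 for all genes. Of all genes tested, 1.14% were higher by over 2-fold, 4.76% higher by over 1.5-fold and 10.4% lower by over 1.5-fold.

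The other genes of these 12 had varied roles. They included the Pax6 gene ey (77.4 at JQ1 2 h against 34.3 at JQ1 1 h, log2 1.15, interval 0.62 to 1.76), the rhodopsin gene Rh7 (179 against 79.1, log2 1.17), the dopamine transporter gene DAT (127 against 59.7, log2 1.07), the synaptic matrix gene mtg (90.2 against 38.7, log2 1.20), the spondin gene mspo (96.1 against 43.1, log2 1.14) and BBS4, of the cilium-associated BBSome (log2 1.35). The actin-associated gene osp had 971 against 438 (log2 1.15) and kept 749 at 20 h. The last of the 12 were Dred (157 against 71.2, log2 1.13) and Mur2B (192 against 93.1, log2 1.04). Highest of all genes above a mean of 50 scaled counts was CG31145, with 289 against 72.0 (log2 1.99, 1.65 to 2.37), followed by side-V and CG12362 (86.8 against 28.1, log2 1.59). CG31145 also differed in the DMSO pair (55.8 in DMSO 20 h and 24.5 in DMSO 1 h). All 12 of the highest genes that carry a name were above both DMSO libraries at 2 h, the library that chose them, and 11 of the 12 still were at 20 h. The 4 neuronal markers were divided. Lower at 2 h than at 1 h were elav (232 against 328) and brp (28.1 against 37.8). Higher, on very low counts, were nSyb (11.9 against 9.67) and Syt1 (5.10 against 2.64).

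Among abundant genes, whose 2 JQ1 libraries averaged 1000 scaled counts or more, changes were smaller and the DMSO pair was nearly still: of 3419 such genes, 43 were lower and 27 higher by over 1.5-fold in the second hour, against 0 and 2 in the DMSO pair. This set was looked at after its values had been seen. Its lowest members were Vps13B, a lipid transport protein gene, with 774 at JQ1 2 h against 1589 at JQ1 1 h (log2 -1.04, interval -1.15 to -0.92). Next was Cap-D2, a condensin subunit gene, with 1135 against 2134 (log2 -0.91, -1.01 to -0.81). Also low were the stress kinase gene Gcn2 (1382 against 2271, log2 -0.72), the mismatch repair gene spel1 (819 against 1360, log2 -0.73), the translesion polymerase gene Rev1 (1661 against 2729, log2 -0.72) and the myosin gene Myo61F (7092 against 11650, log2 -0.72). Among its highest members were mtgo, a long gene of 118 kb, with 25041 against 13562 (log2 0.88, 0.86 to 0.91). Others were the scaffold gene Prosap (16730 against 9513, log2 0.81), the netrin receptor gene fra (3180 against 1786, log2 0.83) and the laminin alpha gene wb (3441 against 2006, log2 0.78).

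Of the lists of genes with a shared role, those of mitochondrial translation stood lowest. The mitochondrial aminoacyl tRNA synthetases charge tRNAs inside the organelle, and this list was drawn up after values had been seen: 4 of 14 members were lower by over 2-fold, 11 by over 1.5-fold and 13 below 0, with a median of log2 -0.84. Of all genes tested, 2.06% were lower by over 2-fold, 10.4% by over 1.5-fold and 62.6% were below 0. IleRS-m had 86.8 scaled counts at JQ1 2 h against 242 at JQ1 1 h (log2 -1.47, interval -1.82 to -1.14) and 662 in DMSO 1 h, TrpRS-m 253 against 581 (log2 -1.20), GluRS-m 43.4 against 104 (log2 -1.24, -1.76 to -0.77) and LeuRS-m 179 against 395 (log2 -1.14, -1.39 to -0.91). AspRS-m was the exception at 5279 against 5221 (log2 0.02). Their 16 cytosolic counterparts had a median of log2 -0.15, with none past 1.5-fold and extremes of -0.40 (HisRS, 3040 against 4022) and 0.02 (AlaRS).

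The 68 mitochondrial ribosomal protein genes tested lay slightly but broadly lower, with 0 past 2-fold, 11 lower by over 1.5-fold, 66 below 0 and a median of log2 -0.38, and 63 were still below 0 with DESeq2 factors. Of all genes tested, 10.4% were lower by over 1.5-fold and 62.6% were below 0. Their lowest member was mRpL21 (145 at JQ1 2 h against 266 at JQ1 1 h, log2 -0.88, interval -1.16 to -0.60) and their highest mRpL3 (1406 against 1360, log2 0.05). In the first hour their median had been log2 -0.43, against -0.51 for all genes, so that they lay 0.08 above all genes in the first hour and 0.29 below in the second. The cytoplasmic ribosomal protein genes, 49 of which are in the scaling index, had a median of -0.01, and the 64 nuclear genes of oxidative phosphorylation -0.05. Among the nuclear oxidative phosphorylation genes ND-51L1 alone passed 2-fold (10.2 against 3.51, log2 1.31), on counts too low to set it apart from no change (interval -0.18 to 3.63). The 9 genes encoded in the mitochondrial genome had a median of 0.12, from -0.16 in mt:ND2 to 0.30 in mt:lrRNA.

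In the 2 fixed lists of cell division genes, which do not hold APC10, 0 members passed 2-fold. Of 29 mitosis genes, 28 were below 0 and 6 were lower by over 1.5-fold, against 62.6% and 10.4% of all genes tested, and the median was log2 -0.36, after -0.88 in the first hour. Lowest was feo, a central spindle protein, with 845 scaled counts at JQ1 2 h against 1481 at JQ1 1 h (log2 -0.81, interval -0.92 to -0.70). Next came the kinesin gene Klp61F (2015 against 3262, log2 -0.69) and the kinetochore gene Ndc80 (486 against 785, log2 -0.69). Bub1 alone lay above 0, at 0.12. Of the 24 genes of the G1 to S transition and replication, 22 were below 0 and 4 were lower by over 1.5-fold, against the same shares of all genes (62.6% and 10.4%), with a median of -0.26. Here the helicase genes Mcm7 (2085 against 3340, log2 -0.68) and Mcm5 (955 against 1522, log2 -0.67), the origin recognition gene Orc6 (128 against 242, log2 -0.92, -1.22 to -0.63) and the kinase gene Cdk4 (681 against 1131, log2 -0.73) went on down, whereas stg, CycD (1248 against 1182, log2 0.08) and E2f1 (6896 against 6936, log2 -0.01) did not.

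Ribosome biogenesis genes had a median of log2 -0.26, with 24 of 31 below 0, against 62.6% of all genes, and 1, Rrp46, lower by over 2-fold. Mat89Ba (1897 at JQ1 2 h against 1617 at JQ1 1 h, log2 0.23) and the exosome nuclease gene Rrp6 (841 against 744, log2 0.18) were their highest members. Of 12 genes of lipid synthesis, 11 were below 0 (8 with TMM and 8 with DESeq2 factors), against 62.6% of all genes, with a median of -0.22. They ran from the acetyl-CoA synthetase gene AcCoAS (1768 against 2627, log2 -0.57, interval -0.65 to -0.49) up to the fatty acid synthase gene FASN2, which alone was higher (196 against 106, log2 0.87, 0.56 to 1.21). The mRNA decay factors were divided, with the nonsense-mediated decay gene Upf3 (273 against 487, log2 -0.83) and 2 subunits of the deadenylase complex, Not11 and Not10, low, and the translational repressor gene pum high (7202 against 5585, log2 0.37). In the proteasome list Rpt6R, a paralogue of a base ATPase, alone passed 2-fold (14.5 against 43.1, log2 -1.51, -2.46 to -0.75), and the list median was -0.08. In the apoptosis list Corp, a feedback inhibitor of p53, alone did so (5.96 against 15.8, log2 -1.27, -2.91 to -0.08).

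**Figure D4:**
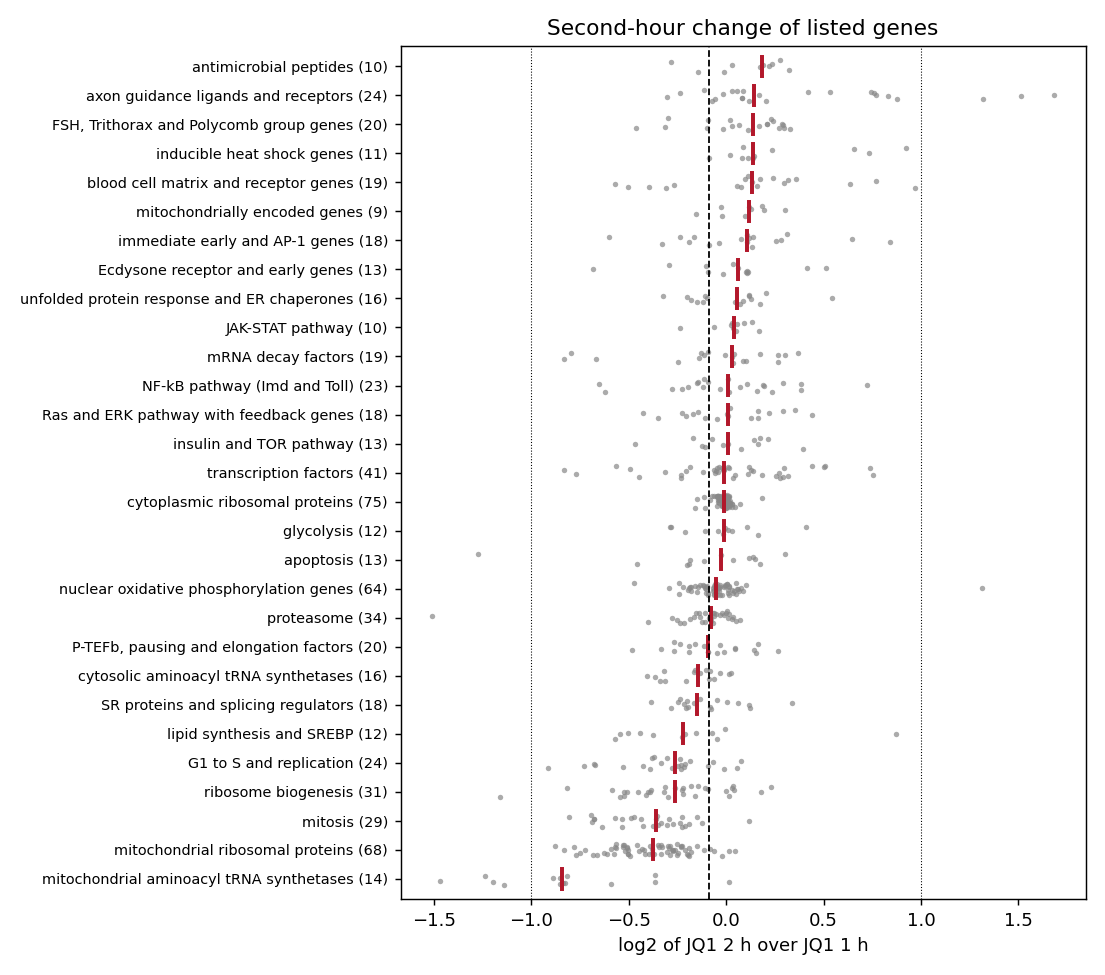
Change from JQ1 1 h to JQ1 2 h (log2) of each tested member (points) of the lists with at least 8 tested members, with the list median (red bar), the median of all genes at -0.09 (dashed line) and 2-fold limits (dotted lines). The number of members is in brackets. Lists run from antimicrobial peptides at the top to mitochondrial aminoacyl tRNA synthetases (median -0.84) at the bottom.

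Other lists had a median above that of all genes. Of 19 blood cell matrix and receptor genes, 14 were above 0, 5 below 0 and 3 higher by over 1.5-fold. Of all genes tested, 62.6% were below 0 and 4.76% higher by over 1.5-fold. Basement membrane genes were higher, with Ppn, papilin, at 5414 scaled counts at JQ1 2 h against 2768 at JQ1 1 h (log2 0.97, interval 0.91 to 1.03). LanA, laminin A, was at 220242 against 141978 (log2 0.63, 0.62 to 0.64). The collagen IV genes Col4a1 (259477 against 202309, log2 0.36) and vkg (174865 against 140235, log2 0.32) followed. The clotting gene Hml had 21658 against 12702 (log2 0.77, 0.74 to 0.80). The receptor genes were divided. The scavenger receptor genes Sr-CIV (134 against 199, log2 -0.57), Sr-CIII (log2 -0.50), Sr-CI (10943 against 14411, log2 -0.40) and crq (3625 against 4495, log2 -0.31) and the engulfment receptor gene drpr (6584 against 7930, log2 -0.27) were lower. The phagocytosis receptor genes NimC1 (703 against 572, log2 0.30) and eater (5952 against 5506, log2 0.11) were higher. Ppn and Hml had been near their DMSO 1 h level after the first hour and went on to 10822 and 32838 at 4 h and to 21263 and 129575 at 20 h.

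Of 11 inducible heat shock genes, 10 were above 0 (9 with scaling by the sum over the index genes), with a median of log2 0.14. In the main scaling 1 was below 0, against 62.6% of all genes tested. Higher by over 1.5-fold were the small heat shock genes Hsp26 (2157 at JQ1 2 h against 1136 at JQ1 1 h, log2 0.92, interval 0.83 to 1.02) and Hsp23 (669 against 424, log2 0.65, 0.49 to 0.82) and the Hsp70 copy Hsp70Bb (66.4 against 39.5, log2 0.73, 0.20 to 1.31). The other 8 members lay at 0.23 or below. The Hsp70 copies are near identical and their counts uncertain. In the list of the unfolded protein response, with a median of 0.06, the chaperone gene Hsc70-3 had 71166 against 48866 (log2 0.54, 0.53 to 0.56) and the oxidase gene Ero1L 829 against 1036 (log2 -0.32). Hsc70-3 had been near its DMSO level after the first hour and reached 117066 at 4 h and 331604 at 20 h.

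Of the 20 genes of FSH, the Trithorax and the Polycomb group, 14 were above 0 (12 with scaling by the sum over the index genes, 15 with DESeq2 factors) and 0 were past 1.5-fold, with a median of log2 0.14, after -0.74 in the first hour. In the main scaling 6 were below 0, against 62.6% of all genes tested. By over 1.5-fold, 10.4% of all genes were lower and 4.76% higher. The highest were Pc, with 352 scaled counts at JQ1 2 h against 280 at JQ1 1 h (log2 0.33, interval 0.12 to 0.54), Scm (1505 against 1223, log2 0.30), trx (5723 against 4677, log2 0.29) and trr (4014 against 3284, log2 0.29). The lowest were E(z), the methyltransferase of the Polycomb repressive complex, with 952 against 1314 (log2 -0.46, -0.58 to -0.35), and its partner Su(z)12 (1381 against 1717, log2 -0.31). Among the immediate early genes, with a median of 0.11, Hr38 (41.7 against 22.8, log2 0.84, 0.15 to 1.61), Atf3 (299 against 191, log2 0.64, 0.40 to 0.90) and the Fos gene kay (23656 against 19041, log2 0.31) were highest and p38a (218 against 330, log2 -0.60, -0.84 to -0.37) lowest.

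The antimicrobial peptides had the highest median of the fixed lists, log2 0.18, but 7 of the 10 had fewer than 110 scaled counts at JQ1 2 h and their intervals reached from below 0 to above it in all 10. The lists of NF-kB, JAK-STAT, Ras, insulin and ecdysone signalling, of transcription factors, of glycolysis and of the positive elongation factor P-TEFb with pausing factors had medians between -0.09 and 0.06 and 0 members past 2-fold. Within them stood PGRP-LB, an amidase that dampens the Imd pathway (213 against 335, log2 -0.65, interval -0.89 to -0.42), the elongation factor gene lilli (2603 against 3635, log2 -0.48) and the histone chaperone gene Spt6 (5452 against 4532, log2 0.27). With DESeq2 factors 40 of the 63 tested oxidative phosphorylation genes and 71 of 75 cytoplasmic ribosomal protein genes were above 0, in place of 19 and 25.

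Gene structure, which the ratio did not use, differed between the genes that fell and those that rose. The annotated genes lower by over 2-fold had a median span of 1.72 kb from first to last exon and a median of 3 exons, those higher by over 2-fold 3.50 kb and 5 exons, and all annotated genes tested 2.65 kb and 4 exons. Spans of at least 20 kb were found in 4.09% of the lower genes, in 17.4% of the higher genes and in 6.67% of all. Across all annotated genes in 5 equal groups by span, the median log2 of the second hour was -0.21, -0.17, -0.12, -0.05 and 0.05 from short to long, where the longest group had a median span of 14.1 kb, while the DMSO pair gave 0.05, 0.04, 0.05, 0.06 and 0.07. In the first hour the same groups had medians of -0.44, -0.57, -0.59, -0.59 and -0.45, with no such order. The longest group lay above the shortest within each of 5 groups by DMSO level, by 0.13, 0.38, 0.24, 0.21 and 0.08. Within groups by exonic length the same difference was 0.04 in the shortest (10 long genes) and 0.12 in the next, and the other 3 groups held 0 genes of the shortest span, so span and exonic length cannot be told apart here. Grouped by exonic length in the same way, the medians were -0.18, -0.18, -0.13, -0.07 and 0.04.

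**Figure D5:**
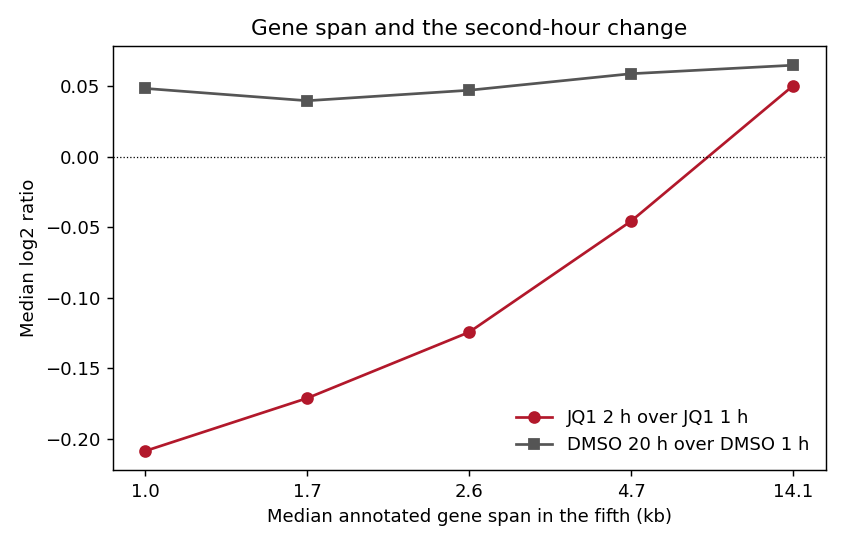
Median log2 ratio of the genes in each of 5 equal groups by annotated span (x axis, median span of the group in kb, evenly spaced), for JQ1 2 h over JQ1 1 h (red) and DMSO 20 h over DMSO 1 h (grey). The JQ1 values climb from -0.21 in the shortest genes to 0.05 in the longest, while the DMSO values stay between 0.04 and 0.07.

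Reads outside gene models were 5.62% of the uniquely mapped reads at JQ1 2 h (Wilson interval 5.61% to 5.63%) and 5.04% at JQ1 1 h (5.03% to 5.05%). DMSO 20 h had 5.44% and DMSO 1 h 5.26%. Their part in the order by span was not tested. In 5 equal groups of annotated genes by DMSO level, 37 of the genes lower by over 2-fold lay in the lowest group, where the DMSO pair gave 27. The group above it held 100, where the DMSO pair gave 0. The middle group held 31, the next 3 and the highest 0. Of 72 annotated genes on the fourth chromosome, 0 (0.0%) were lower and 3 (4.17%) higher by over 2-fold, with a median of log2 0.08. Of all genes tested, 2.06% were lower and 1.14% higher, so these counts rest on few genes. On the X chromosome 16 of 1385 (1.16%) were lower and 12 (0.866%) higher. The medians of the X chromosome and of the large autosome arms lay between -0.11 and -0.08.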

How the data were processed

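The authors made polyA-selected libraries from 4 µg of total RNA and sequenced them in a shared lane with single-end reads of 50 cycles. Reads were aligned by the authors with TopHat to BDGP5 and the Ensembl release 64 annotation, and those mapped uniquely were counted per gene with HTSeq-count. Tool versions and strand use are not given in the sources used here. The deposited files hold raw read counts for 14869 genes and 5 lines that name no gene (25.6% of the records at JQ1 2 h and 25.3% at JQ1 1 h), which were left out of library totals.

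Each count was divided by a factor, the median over the 100 genes most abundant in DMSO of the count over its geometric mean across the 6 libraries. Genes that averaged 10 or more scaled counts were kept. Ratios were log2 of scaled counts with a pseudocount of 1, which understates changes of low genes. "Lower" and "higher" were counted past 2-fold, and exact Clopper-Pearson intervals of 95% were computed from the raw counts of the pair. No test across genes was run, since each condition has 1 library. The calculations were tested on simulated data.

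The genes, lists and classes were chosen with earlier results of these data known. Named genes, among those that averaged 50 or more scaled counts in the JQ1 pair, were the 5 lowest and 5 highest, the 12 lowest and 12 highest that carry a name, 4 per class, and for each list up to 4 members past 2-fold, with its lowest and highest member where fewer than 2 passed, plus fs(1)h. The minimum was not applied to list members. Other list members, abundant genes, and the 2 lists said to be drawn up later were chosen after their values had been seen. Symbols and gene structure came from the release 6 annotation (Ensembl release 115), which matched 7987 of the 8690 genes (91.9%), and because the build differs no coordinates are given. Promoter motifs were planned but not analysed here, and 1 gene that the rule names is not reported here.

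The alternatives tried were 5 further scalings (index sum, 500 index genes, totals, TMM of edgeR 4.0.16 and factors of DESeq2 1.42.0 in R 4.3.3), a pseudocount of 5, no filter, a minimum of 50, a limit of 1.5-fold, the counting interval as a condition, and both DMSO libraries as the reference of the first hour. Python 3.11.15 with scipy 1.17.1 was used.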

Additional observations from a re-analysis of the deposited data

Results flagged for a closer look

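The share of uniquely mapped reads that fell outside gene models, which no comparison of genes uses, was 5.62% in JQ1 2 h and 5.04% in JQ1 1 h. It was 5.44% in DMSO 20 h and 5.26% in DMSO 1 h, so that the JQ1 2 h library lay above both DMSO libraries and the JQ1 1 h library below both. Each share has a counting interval of about 0.01 percentage points on either side, and with 1 library per condition the spread between replicates is unknown. The JQ1 4 h and 20 h libraries had 5.31% and 4.95%.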

How the results depend on the processing

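No paired analysis was possible because each condition has 1 library and the labels carry no shared replicate numbers. The 179 genes lower and 99 higher by over 2-fold became 214 and 85 with the index sum, 188 and 96 with 500 index genes, 182 and 101 with totals, 132 and 133 with TMM, 121 and 141 with DESeq2 factors, 139 and 58 with a pseudocount of 5, 446 and 528 with no filter, 143 and 29 with a minimum of 50, 906 and 414 with a 1.5-fold limit, and 172 and 81 with the counting interval as a condition.

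Class sizes moved with the scaling, which changes both hours at once, and with the limits and filters. The 115 genes that fell in both hours became 69 with totals, 28 with TMM, 23 with DESeq2 factors and 745 with the 1.5-fold limit. The 794 that held became 468 with 500 index genes, 381 with totals, 237 with TMM, 226 with DESeq2 factors and 2037 with the 1.5-fold limit. The 77 that fell then rose became 47 with totals, 36 with TMM, 33 with DESeq2 factors, 36 with a pseudocount of 5, 485 with no filter, 14 with a minimum of 50 and 155 with the 1.5-fold limit. The 21 late fallers became 32 with the index sum, 38 with 500 index genes, 48 with totals, 46 with TMM, 48 with DESeq2 factors, 12 with a pseudocount of 5, 145 with no filter, 6 with a minimum of 50 and 154 with the 1.5-fold limit. The 41 late risers became 64 with TMM, 67 with DESeq2 factors, 202 with no filter, 19 with a minimum of 50 and 203 with the 1.5-fold limit. The 9 that rose in both hours became 20 with TMM, 24 with DESeq2 factors, 4 with a minimum of 50 and 56 with the 1.5-fold limit. The other 26 class sizes and 14 counts under these settings stayed within 1.5 times.

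List medians relative to all genes kept their sign under the other scalings, pseudocount and filters, except P-TEFb and the proteasome, which lay near 0, and no named gene past 2-fold changed sign. The scalings moved the median gene by -0.05 to 0.09. A global change shared by the index genes would not be visible in any of these scalings, and the low levels of most genes that rose limit how firmly each can be called.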
